A study of Drosophila melanogaster with 12 samples.

Results

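Among the genes of Drosophila melanogaster that carry only a computed gene number (CG followed by digits) in the deposited count table, 173 had lower RNA levels in wing discs with activated Notch, in discs lacking the polarity gene scribble and in discs with both changes than in wild-type discs. A gene was taken when its mean over the wild-type libraries was at least 3 CPM (a count scaled by its library total) and its mean in each of the 3 mutant groups was at most 0.6 times that mean. The table holds 7171 such symbols, of which 2806 reached 3 CPM in wild type. The 173 members are 6.17% of these 2806, and 224 of the 4429 other symbols at that level, or 5.06%, met the same rule. The members were thus chosen by their measured CPM in WT and in each mutant group, and the lower level in the mutants is given below as a description, without a test.

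A CG number is given to a gene when it is predicted from the genome sequence, and it stays as the symbol until a name is assigned from its function or mutant phenotype. The wing imaginal disc is an epithelial sac of the larva that forms the adult wing and thorax. Notch is a receptor whose cut intracellular part enters the nucleus and turns on target genes, and it patterns the wing margin in this tissue. Scribble is a scaffold protein at the lateral cell membrane, and discs without it lose apical-basal polarity and overgrow.

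Each library came from a pool of 60 wing discs of larvae taken 6 days after egg laying, and each of the 4 groups has 3 libraries. The 3 groups called N, NS and WT share a chromosome with abxUbx-Flp on a y-, w- background, the Act>y+>Gal4 driver with UAS eGFP, and FRT82B tubGal80. N adds UAS Nicd, the activated form of Notch, over an FRT82B chromosome. NS adds UAS Nicd and the allele scrib1 on the FRT82B chromosome. Gal80 blocks Gal4, so the transgene is on only in cells where the Flp recombinase has removed the y+ cassette and where recombination at FRT82B has removed tubGal80, and in NS those cells are also the ones without a normal scrib copy. S is different in kind: the larvae were w- and carried FRT82B scrib1 over the deficiency Df(3R)BSC752, with no driver listed, so every cell was mutant. WT is labelled as the wild-type control, and WT replicate 1 lists no UAS Nicd, but the genotype text of WT replicates 2 and 3 does. Library totals ran from 21024017 to 42407447 counts, so 1 count is worth 0.0236 to 0.0476 CPM.

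The genes the labels point to were read first. Level of scrib RNA was 360 to 457 CPM in WT, 466 to 533 in N and 125 to 202 in S, while NS had 392, 419 and 74.5 CPM. Level of Notch RNA (symbol N) was 673, 903 and 768 CPM in WT replicates 1, 2 and 3. It was 2118 to 2334 in N, 1594, 1408 and 428 in NS, and 278 to 637 in S. Both WT replicates with UAS Nicd in their genotype text thus lay below all N libraries but above WT replicate 1, which lists none. In NS and in S, replicate 3 held the lowest value of its group for both genes. These 2 libraries were low in long genes: the 1509 genes with over 5000 exon bases, a limit set after seeing the data, took 6.27% of the counts in NS replicate 3 and 13.5% in S replicate 3, against 17.8% to 22.9% in the other 10 libraries. The summed level of 10 fat body genes was highest within its group in S replicate 1 (13670 CPM), NS replicate 1 (8148 CPM) and N replicate 2 (3974 CPM), against 762 to 1436 CPM in WT. In a pool of whole discs, fewer cells of a type and less RNA per cell cannot be told apart.

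WT replicate 1 stood apart from the other 2 WT libraries in many of the members. Without it the rule was met by 115 CG genes, or 4.20% of those at 3 CPM, against 3.88% of the other symbols. The 2 WT libraries left are those whose genotype text lists UAS Nicd. Of the 115 genes 112 are members, so 61 of the 173 met the rule only with that library. In 49 of these 61, WT replicate 1 held over 80% of the summed WT level (at least 83.7%). The summed level of the 49 was 6209 CPM in WT replicate 1, 19.9 in WT replicate 2 and 9.86 in WT replicate 3, and 6.15 to 39.0 CPM in the mutant libraries. For these genes the sums of WT replicates 2 and 3 lay within the range of the mutant libraries, and 32 of the 49 were at or under 1 CPM in all 11 other libraries.

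**Figure D1:**
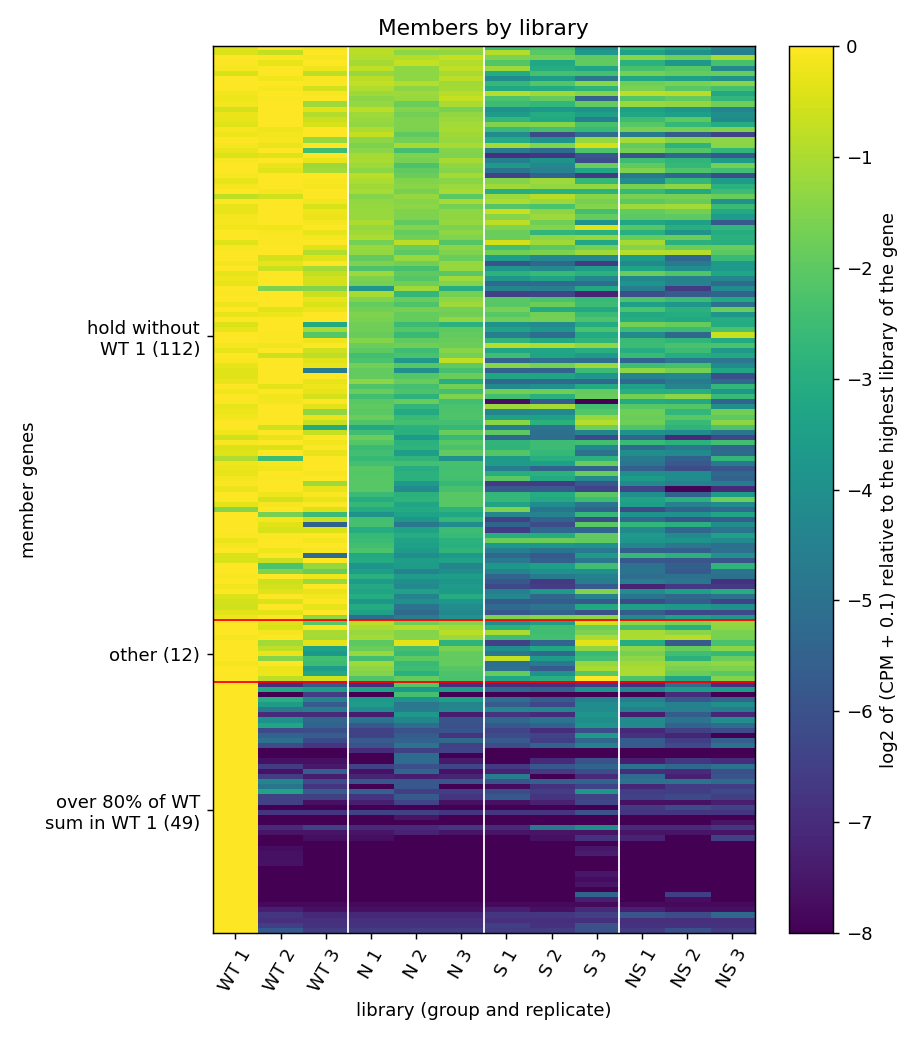
Heat map of the 173 members (rows) in the 12 libraries (columns), coloured by log2 of CPM plus 0.1 relative to the highest library of that gene. The upper block of 112 genes is bright in all WT columns with few exceptions, whereas the 49 genes of the bottom block are bright in WT replicate 1 alone.

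The gene with the highest WT mean shows the split. CG18180 lies on chromosome arm 3L at 9641013 to 9641913 (dm6, plus strand), has a single exon and carries the serine protease synonym SP151 in RefSeq. Its level was 3071 CPM in WT replicate 1, 2.46 in replicate 2 and 0.177 in replicate 3, and 0.141 to 3.09 CPM in the mutant libraries. Its neighbour CG18179, with the synonym SP152, had 139, 0.288 and 0.0253 CPM in the WT libraries and no more than 0.147 in any mutant library. CG17633 had 757, 0.366 and 0 CPM in WT. CG14500 and CG5883 had 22.2 and 11.6 CPM in WT replicate 1 and 0 counts in all 11 other libraries, where 3 counts, the limit a count of 0 allows, are 0.0707 to 0.143 CPM depending on depth. In each of these genes WT replicate 1 alone was high. The other genes of the lowest ratios to WT, CG11912, CG10827 (Alp5, alkaline phosphatase family), CG31198, CG5506 and CG6296, had 19.0 to 44.5 CPM in WT replicate 1 and at most 0.131 CPM in every other library.

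Each family of digestive enzyme genes looked up outside the CG symbols had its highest sum in WT replicate 1, at levels from 7.69 to 4941 CPM. The families were looked up after the values were seen, and no test was made. The Jonah serine proteases, enzymes of the larval gut, summed to 4941 CPM in WT replicate 1 and to 2.03 to 219 CPM elsewhere, with the 219 in N replicate 2. Of the 16 Jonah genes, 15 were highest in WT replicate 1, and 14 met the rule with that library but 0 without it. Both amylase genes, which digest starch, summed to 564 CPM there and to 0.177 to 1.81 CPM elsewhere. Of the 10 maltase genes 2 met the rule, Mal-A3 with 52.0 CPM and Mal-A4 with 25.3 CPM in WT replicate 1 and 0 in the other WT libraries, whereas Mal-A5 was highest in S replicate 1 and Mal-B2 in NS replicate 2. None of the 11 trypsin or 7 lysozyme genes reached a WT mean of 3 CPM or met the rule. Of these, 1 trypsin gene and 4 lysozyme genes had 0 counts in every library, so they say nothing about WT replicate 1. Their sums were still highest in WT replicate 1, at 9.41 and 7.69 CPM, against at most 4.95 CPM (N replicate 2) and 1.22 CPM (S replicate 3) elsewhere. Of the 49 members, 8 carry serine protease synonyms in RefSeq, against 31 of the 2806 CG genes at 3 CPM (1.10%) and 4 of the 112. The salivary glue genes, made by a larval gland, had 63.2 CPM in WT replicate 1, 33.2 in S replicate 3 and at most 5.20 CPM in the other libraries. The part of gut or gland RNA in these values was not tested.

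**Figure D2:**
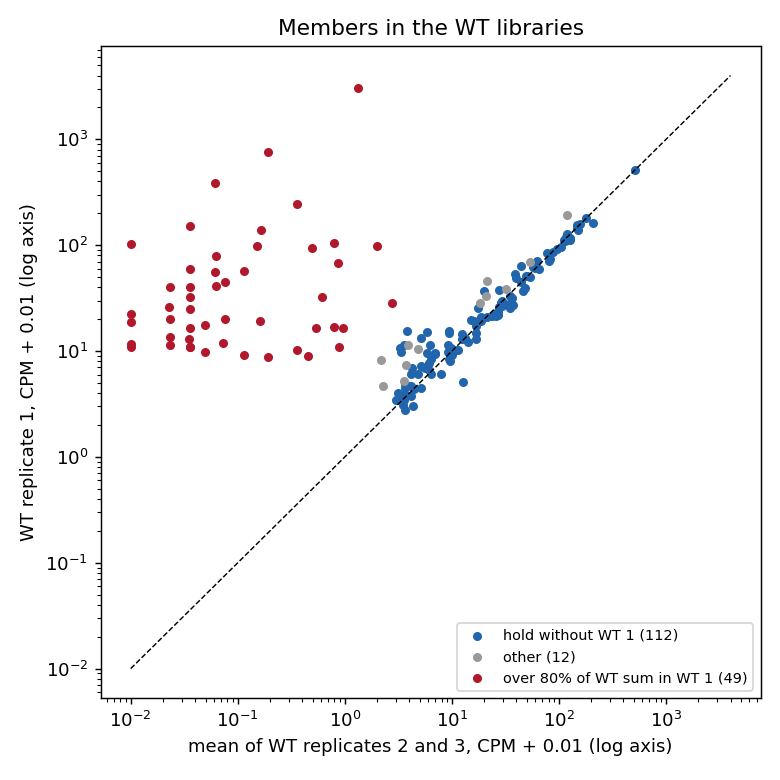
Level of each member in WT replicate 1 (vertical, CPM plus 0.01, log axis) against the mean of WT replicates 2 and 3 (horizontal, same scale), with the dashed line marking equal values. The 112 members that hold without WT replicate 1 have 17.0% to 67.3% of their WT sum in it, and the 49 with over 80% of the WT sum in that library lie far above it.

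The 49 genes also differ in build from the rest. Their median coding length was 290 codons, and 25 of them have at most 2 exons. The 112 members had a median of 530.5 codons and 17.9% had at most 2 exons, against 421 codons and 30.1% over the 2806 CG genes. Of the 11 pairs of members that are next to each other in the annotation, 5 pairs lie within the 49, among them CG18179 with CG18180 on 3L and CG11912 with CG11911 on 2L, and 4 pairs lie within the 112. No run of 3 members was found.

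On the mean of WT replicates 2 and 3 alone, the WT libraries with UAS Nicd in their genotype text, the rule was also met by 112 members. Their summed level was 4541, 4703 and 4371 CPM in the WT libraries, 1319 to 1720 CPM in N, 921 to 1195 in S and 609 to 853 in NS. No mutant library came near a WT library in this sum, and the N libraries were the highest of the mutants. NS replicate 3 and S replicate 3, the libraries low in long genes, had the lowest sums of their groups, and the median exon length of the 112 was 2454 bases, against 1874 over the 2806 CG genes, with 14 of the 112 over 5000. Without these 2 libraries 174 CG genes met the rule, 167 of them members, and with CPM corrected for exon length 183 did, 166 of them members. The median ratio to WT was 0.316 in N, 0.157 in S and 0.113 in NS. N was the highest mutant group for 81 genes, S for 18 and NS for 13, and the lowest group was NS for 59, S for 50 and N for 3. The mean was under 0.1 times WT in 8 genes in N, 38 in S and 47 in NS, and in all 3 groups at once for 6 genes.

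Across all 173 members, every N library lay below every WT library in 105 genes, against 16.1% of the 7235 genes at 3 CPM. The same held for S in 109 members, with a background of 33.1%, and for NS in 110 members, with a background of 30.2%. Since the rule used these values, nothing is read from these counts. Among the 112 members the counts were 101, 105 and 103, and 100 had all 9 mutant libraries below all 3 WT libraries. Among the 61 others the counts for N, S and NS were 4, 4 and 7. The share of all genes with all 9 mutant libraries below WT was not counted. The 112 had to meet the rule without WT replicate 1 too, so nothing is read from these counts either.

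**Figure D3:**
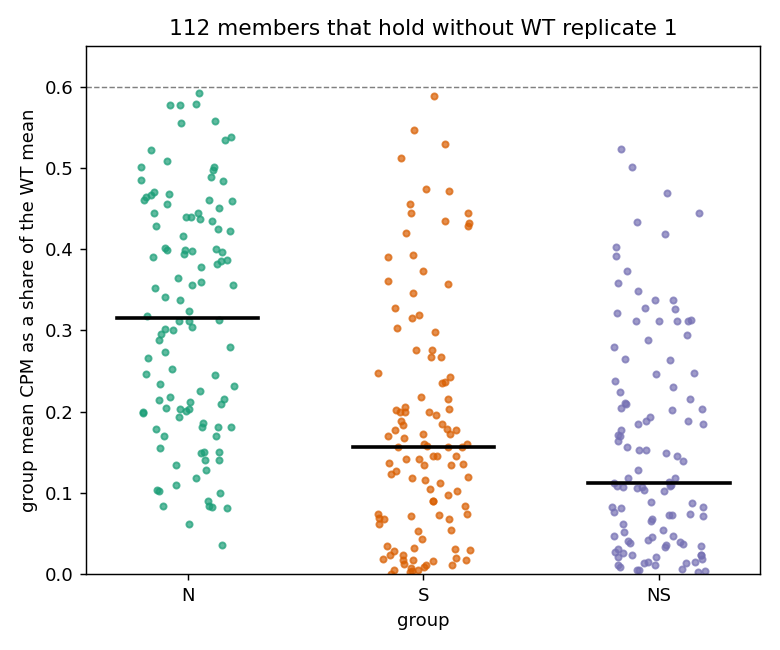
Group mean as a share of the WT mean for the 112 members, 1 point a gene, in N, S and NS, with the median as a black bar and the limit of 0.6 as a dashed line. The medians fall from 0.316 in N to 0.157 in S and 0.113 in NS, and points reach down to near 0 in S and NS.

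Of the 173 members, 27 have a name in the current RefSeq table, 19 of them among the 112, so the label uncharacterised does not hold for these. The highest WT mean CPM of the 112, not corrected for length, was that of peg (CG17278, 3R, 21021044 to 21024163, minus strand), the gene pegasus, whose 80-codon product is a secreted Kazal-domain protein that extends the range of the Wingless signal in the wing disc. The peg level was 508, 481 and 543 CPM in WT, 155, 165 and 157 in N, 295, 274 and 215 in S, and 95.4, 110 and 114 in NS. The 4 groups did not overlap, and their order was WT, S, N, NS. The S level exceeded N by 0.84 ± 0.155 on the log2 scale (n = 3 per group, edgeR quasi-likelihood adjusted p = 0.00441). NS lay below S by a log2 difference of −1.24 ± 0.156 (edgeR adjusted p = 0.00154). Each ± here and below is an approximate SE. It is the size of the log2 difference over the square root of its F statistic, with the spread fitted over all 12 libraries. The difference between NS and N did not pass the threshold (log2 difference −0.40 ± 0.154, edgeR adjusted p = 0.133). Without the 3 libraries of most fat body RNA the adjusted p was 0.0518 for S against N, within a range of 6.15e-07 to 0.0518 over the alternatives, and 0.0606 for NS against S. With NS and S alone it was 0.0947, the highest of the range from 9.48e-15.

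The other named members of the 112 cover several roles, and each was lower in all mutants by the rule. Pgant9 (CG30463) adds sugars to secreted proteins and had 119, 121 and 110 CPM in WT, 44.5 to 58.7 in N, 39.0 to 60.5 in S, and 29.5, 33.5 and 7.98 in NS. smal (CG34380), a discoidin domain receptor of the receptor tyrosine kinase type, had 91.5 to 99.5 CPM in WT, 25.7 to 50.3 in N, 56.9, 29.6 and 6.55 in S and 1.76 to 10.8 in NS. Its S libraries spread over a wide range, and NS lay below N by a log2 difference of −2.33 ± 0.713 that did not pass the threshold (edgeR adjusted p = 0.0714). Pgant9 and smal are long genes, with 6101 and 5506 exon bases. Their lowest NS and S values were in NS replicate 3 and S replicate 3, the libraries low in long genes. cysu (CG5873), a heme peroxidase needed for normal wings, had 39.6 to 47.8 CPM in WT, 15.3 to 22.9 in N, 0.598 to 3.12 in S and 3.87 to 8.41 in NS, and its fall from N to S passed the threshold (log2 difference −3.30 ± 0.475, edgeR adjusted p = 0.00109). Cln7 (CG8596), a lysosomal membrane protein, had 57.0 to 61.4 CPM in WT, 19.6 to 29.6 in N, 7.55 to 8.50 in S and 6.80 to 10.7 in NS. It was lower than N in S by a log2 difference of −1.57 ± 0.212 (edgeR adjusted p = 0.000703) and in NS by −1.33 ± 0.21 (edgeR adjusted p = 0.00327). Tmc (CG46121), a channel-like protein of mechanosensory neurons, went another way in WT, with 53.1, 70.4 and 7.88 CPM. It had 9.36 to 21.1 CPM in N, 3.93 to 8.19 in S and 8.22 to 21.9 in NS, so every N and NS library lay above WT replicate 3.

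Other members with a current name or a RefSeq synonym include transporters, enzymes and proteases. nebu (CG10960), with the sugar transporter synonym GLUT8, had 117 to 128 CPM in WT, 17.3 to 30.2 in N, 31.2, 14.7 and 6.76 in S and 2.79 to 10.3 in NS. CG7720, with the synonym SLC5A1 of a sodium-coupled solute transporter, had 17.5 to 20.2 CPM in WT, 1.55 to 2.58 in N, 0.380 to 0.806 in S and 0.473 to 0.523 in NS. Both S and NS lay below N without overlap in CG7720 (log2 −1.52 ± 0.317 and −1.76 ± 0.323, edgeR adjusted p = 0.00882 and 0.00743), whereas no difference between mutant groups passed the threshold in nebu. acs (CG1139) was the sparsest of these, with 3.21 to 4.11 CPM in WT, 0.783, 0.221 and 2.36 in N and at most 0.049 CPM in any S or NS library. S lay below N by −5.58 ± 1.11 (log2, edgeR adjusted p = 0.00697), with S at or near 0 counts. CG9331, with the synonym GRHPR of a glyoxylate reductase, had 145 to 156 CPM in WT, 82.3 to 95.4 in N, 39.9 to 53.2 in S and 47.2 to 76.2 in NS. Of the 4 serine protease genes among the 112, l(2)k05911 (CG31728, SP36) had 47.7 to 51.5 CPM in WT, 15.7 to 25.8 in N, 14.7 to 21.4 in S and 6.83 to 14.9 in NS. CG3355 (SP21) had 3.58 to 4.72 CPM in WT and 0.101 to 1.59 CPM over the mutant libraries. In contrast to the proteases of the 49 genes, these had WT libraries that lay close to each other. CG15353, named for its high WT mean but 1 of the 61 members that met the rule only with WT replicate 1, overlapped between groups, with 192, 88.1 and 151 CPM in WT, 47.1, 152 and 27.2 in N, 2.1, 4.44 and 154 in S and 23.4, 3.62 and 39.3 in NS, and 70.3% of its exon bases are shared with a gene on the opposite strand. CG17211 had 158, 172 and 145 CPM in WT, 58.9 to 72.4 in N, 46.4 to 76.4 in S, and 42.5, 43.3 and 14.3 in NS. No difference between mutant groups passed the threshold. CG17211 has 5159 exon bases, and its lowest NS and S values were in the 2 libraries low in long genes.

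That dip in WT replicate 3 was shared by other members. Outside the 49 genes, 20 members had less in WT replicate 3 than 0.5 times both other WT libraries, 12 of them among the 112, and in 18 of the 20 both S replicates 1 and 2 lay below S replicate 3. Culd (CG17352) had 63.2, 74.7 and 13.2 CPM in WT and 2.74, 1.98 and 15.9 in S. CG13992 had 25.7, 33.7 and 1.16 CPM in WT and 0.684, 0.690 and 5.67 in S. The level of such a gene in WT depends on which libraries are counted, and 2 of the 20 were called in any comparison between mutant groups. The shares over all genes for the dip, for the order in S and for such calls were not counted. Nothing is thus read from these counts about the members. With each WT library taken alone as the reference, 169, 114 and 92 of the 173 members met the rule for replicates 1, 2 and 3, and 81 met it with each of the 3. All 81 are among the 112, and their median ratios to WT were 0.311 in N, 0.158 in S and 0.0893 in NS.

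The rule did not compare the mutant groups with each other, so those differences were fitted gene by gene. It did cap the mean of every mutant group relative to WT, which still limits the values compared. The genes tested as a whole had no such cap. Their shares are thus given as a description and are not a matched background for the direction of the calls. How far the cap shapes these counts was not tested. All 9444 genes that passed a filter on low counts were fitted together, and a gene was called at an adjusted p under 0.05. The filter kept 147 of the 173 members: 112 of the 112 that hold without WT replicate 1 and 35 of the 61 others. In NS against N, 0 members were called higher and 42 lower, against 4.22% of all genes tested called higher and 3.66% called lower. At an unadjusted p under 0.05, edgeR gave 0 higher and 67 lower, and DESeq2 at an adjusted p under 0.05 called 0 higher and 57 lower. Shares over all genes were not counted for these 2 criteria, and the 3.66% does not apply to them. The median log2 difference of the 112 was −1.10, against 0.0656 over all genes tested. All 42 lie among the 112. In none of the 3 comparisons was any of the 35 others called by edgeR (0, 0 and 2 at an unadjusted p under 0.05), and DESeq2 called 1 of the 61, lower in S against N. The fit took 1 spread per gene over all 12 libraries, so a high value in WT replicate 1 alone can widen the error. In hiro (CG3344), N had 1.77 to 2.81 CPM and S 0.150 to 0.253. Its log2 difference for S against N, −3.34 ± 2.1, was still not called (edgeR adjusted p = 0.309). The lack of calls thus does not show that these members are alike in the mutant groups.

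**Figure D4:**
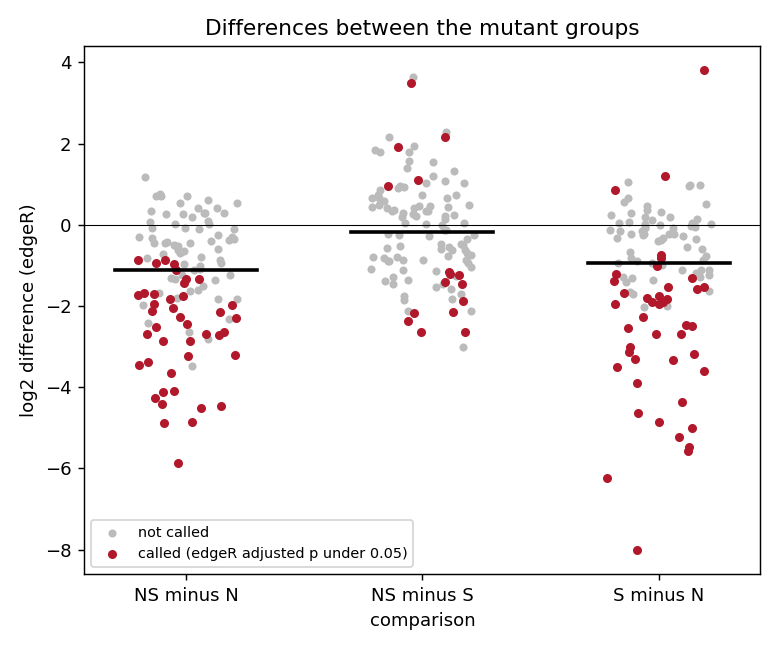
Fitted log2 difference of the 112 members for NS minus N, NS minus S and S minus N, 1 point a gene, with members called at an edgeR adjusted p under 0.05 in red and the median as a black bar. All 42 red points in the first column lie below 0, the second column has 5 above and 11 below, and the third has 3 above and 40 below.

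In S against N, 3 members were called higher and 40 lower, against 8.21% and 6.12% of all genes tested. Here and in NS against S, the cap of the rule again limits the members and not the genes as a whole, so these shares are a description only. The median log2 difference of the 112 was −0.942, against 0.0464 over all genes. This comparison and NS against N share the N libraries, so their values are given side by side and not counted together. In NS against S, 5 members were called higher and 11 lower, against 1.57% and 2.27% of all genes tested, and the median of the 112 was −0.188. These 2 counts depend on the fit: with NS and S fitted alone, 0 were called either way, and without the 3 libraries of most fat body RNA 0 were called higher and 1 lower. Leaving out S replicate 3 gave 17 higher and 18 lower, and leaving out NS replicate 3 gave 17 lower. The count of higher calls was 1 without S replicate 1, 2 without NS replicate 1, and 3 without NS replicate 2, WT replicate 2 or any 1 of the N libraries, and the lower calls were 7 without NS replicate 1 or WT replicate 2. In S against N, leaving out NS replicate 3 gave 6 higher, and leaving out both libraries low in long genes, NS replicate 3 and S replicate 3, gave 61 lower.

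Several of the called members kept part of their WT level in N and little of it in S and NS. CG3097 (X, 5765855 to 5770780, minus strand) had 27.6, 29.7 and 38.1 CPM in WT, 17.9, 13.0 and 13.0 in N, 0.228, 0.270 and 0.572 in S, and 0.552, 0.904 and 0.612 in NS. N thus kept 0.461 of the WT level while all S and NS libraries were under 1 CPM. Its log2 difference from N was −5.22 ± 0.358 in S (edgeR adjusted p = 1.66e-05) and −4.26 ± 0.339 in NS (edgeR adjusted p = 0.000153). CG14257 (3R, 27075870 to 27082818, plus strand) had 33.1, 34.7 and 35.0 CPM in WT, 19.6, 9.74 and 16.3 in N, 0.260 to 0.720 in S and 0.416 to 1.18 in NS. The same order held, with log2 differences from N of −5.01 ± 0.452 in S and −4.10 ± 0.428 in NS (edgeR adjusted p = 6.84e-05 and 0.000363). CG15905 (2R, 19646483 to 19647645, minus strand) had 80.2 to 95.3 CPM in WT, 29.2 to 39.9 in N, 0.884 to 2.22 in S and 3.66 to 7.61 in NS. It was lower in S than in N by −4.35 ± 0.374 (log2, edgeR adjusted p = 6.31e-05), and higher in NS than in S by 1.92 ± 0.351 (log2, edgeR adjusted p = 0.0124). Without S replicate 1 the latter gave an adjusted p of 0.0544, and the alternatives ranged from 7.2e-06 to 0.262. CG9312 (3R, 13765756 to 13767103, plus strand) had 8.77 to 12.5 CPM in WT, 3.62 to 4.41 in N, 0.228 to 0.260 in S and 0.245 to 0.762 in NS, with log2 differences from N of −3.89 ± 0.383 in S and −2.85 ± 0.363 in NS (edgeR adjusted p = 0.000114 and 0.00111).

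In other called members N was already far below WT, and S and NS lower still. CG11899 (3R, 29200454 to 29201770, plus strand) had 112, 119 and 133 CPM in WT, 31.1, 16.4 and 25.1 in N, 5.50, 2.91 and 2.96 in S, and 2.73, 1.81 and 2.20 in NS. No libraries of N overlapped S or NS, and the log2 differences from N were −2.55 ± 0.293 in S (edgeR adjusted p = 0.000278) and −3.24 ± 0.306 in NS (edgeR adjusted p = 0.000276). Jhbp2 (CG2016), of a family that binds juvenile hormone, had 21.7, 22.4 and 31.0 CPM in WT, 1.88 to 2.17 in N, 0.468 to 0.510 in S and 0.269 to 0.523 in NS. Its N level was 0.0822 of WT, and the mutant libraries all stayed at or under 2.17 CPM. NS lay below N by −2.31 ± 0.252 (log2, edgeR adjusted p = 0.00047), and S below N by −1.95 ± 0.244 (log2, edgeR adjusted p = 0.000455). CG2663 had 7.35 to 11.5 CPM in WT, 0.913 to 1.29 in N, 0.150 to 0.355 in S and 0.0951 to 0.105 in NS (log2 differences from N of −1.84 ± 0.363 in S and −3.21 ± 0.4 in NS, edgeR adjusted p = 0.00675 and 0.00101).

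**Figure D5:**
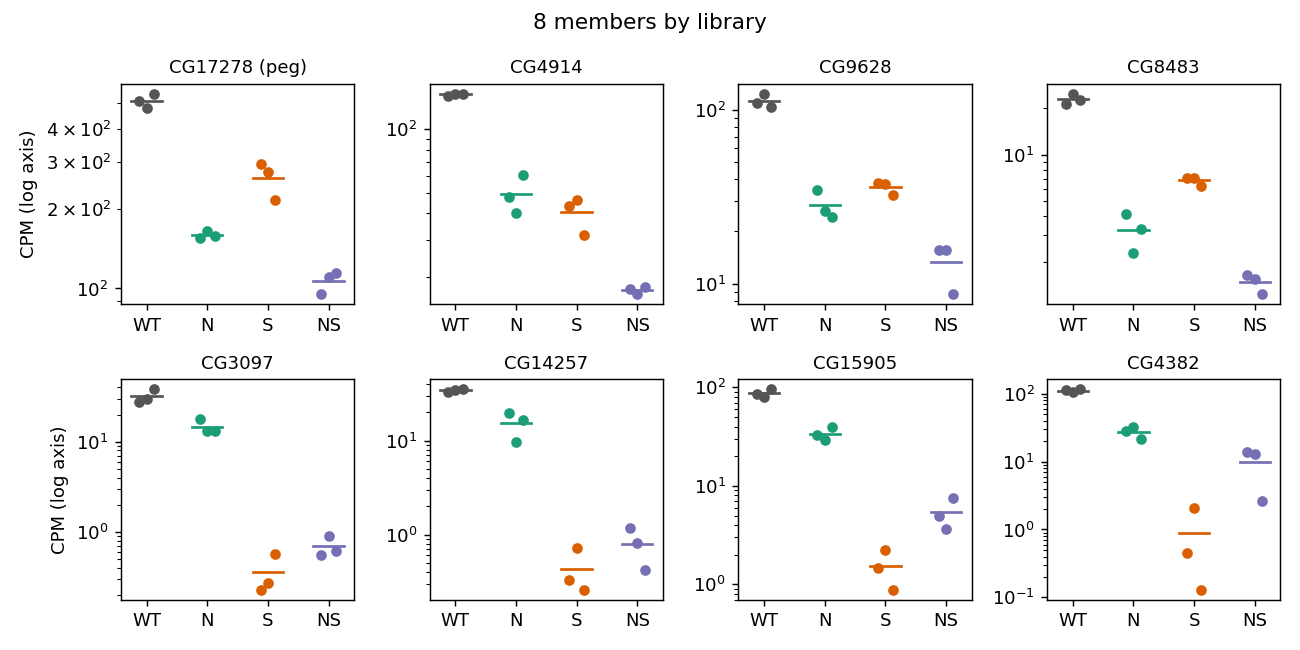
Level in CPM (log axis) of 8 members in each library of WT, N, S and NS, 1 point a library and a bar for the group mean. CG3097, CG14257 and CG15905 kept N far above S and NS, CG8483 and peg (CG17278) had S above N, and CG4914 and CG9628 were lowest in NS.

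Other members were lowest in NS. CG4914 (3L, 14674538 to 14678147, minus strand), a serine protease gene by its RefSeq synonym SP39, had 145, 148 and 147 CPM in WT, 47.9, 40.2 and 60.5 in N, 43.4, 46.5 and 31.6 in S, and 17.6, 16.6 and 17.9 in NS. N and S overlapped, and every NS library lay below both. The log2 difference was −1.33 ± 0.18 against N (edgeR adjusted p = 0.00162) and −1.17 ± 0.18 against S (edgeR adjusted p = 0.0045). CG32447 (3L, 21690612 to 21706365, minus strand) had 163, 208 and 204 CPM in WT, 54.8, 48.4 and 58.1 in N, 21, 20.8 and 14.7 in S, and 9.41, 10.6 and 3.04 in NS, and NS lay below N by −2.68 ± 0.343 (log2, edgeR adjusted p = 0.00116). Its difference between NS and S did not pass the threshold (log2 −1.29 ± 0.331, edgeR adjusted p = 0.0593). CG32447 has 5180 exon bases, and its lowest NS and S values were in the 2 libraries low in long genes. CG9416 (2R) had 139, 150 and 151 CPM in WT, 13.4 to 28.1 in N, 9.62 to 11.1 in S and 4.36 to 7.38 in NS, with NS below N by −1.70 ± 0.244 (log2, edgeR adjusted p = 0.00196). CG9628 had 103 to 124 CPM in WT, 24.1 to 34.5 in N, 32.2 to 37.8 in S and 8.74 to 15.7 in NS, and its log2 difference was −0.93 ± 0.2 against N and −1.40 ± 0.202 against S (edgeR adjusted p = 0.0162 and 0.00341). CG4766 (−1.44 and −1.21) and CG7201 (−2.73 and −2.37) were also called lower in NS than in N and than in S. For NS against S, CG4914, CG4766, CG9628 and CG7201 lost the call with the 2 groups alone (adjusted p 0.0829, 0.168, 0.0505 and 0.218). Without NS replicate 1 CG7201 lost it too (adjusted p = 0.0628, over a range of 3.4e-05 to 0.218), and CG9628 lost its call against N without N replicate 1 (0.0831, range 0.000347 to 0.0949).

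A few members had more RNA in S than in N. CG8483 (3R, 13208754 to 13214465, minus strand) had 21.3, 24.9 and 22.7 CPM in WT, 4.14, 2.30 and 3.28 in N, 7.09, 7.11 and 6.29 in S, and 1.66, 1.57 and 1.25 in NS. The groups did not overlap, and S exceeded N by 1.20 ± 0.219 (log2, edgeR adjusted p = 0.00434) and NS lay below S by −2.16 ± 0.229 (log2, edgeR adjusted p = 0.000571). With NS and S alone the latter adjusted p was 0.0505, within a range of 2.13e-16 to 0.0505. Ugt49C1 (CG15661), a UDP-glycosyltransferase, had 4.51, 5.20 and 2.02 CPM in WT, 0.0505 to 0.259 in N, 1.70 to 2.0 in S and 0.184 to 0.381 in NS. S was above N by 3.81 ± 0.62 (log2, edgeR adjusted p = 0.00216), while S replicate 3 came close to WT replicate 3 (2.0 against 2.02 CPM). NS was below S by −2.64 ± 0.588 (edgeR adjusted p = 0.0327), but the replicate-blocked fit gave 0.0596, and the alternatives ranged from 0.000202 to 0.267, with the call lost on leaving out N replicate 2 (0.0554), NS replicate 1 (0.116) or 2 (0.0807), S replicate 1 (0.0636) or 2 (0.0772), or WT replicate 1 (0.0578) or 2 (0.056).

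Members with more RNA in NS than in S were CG6287, CG15905, CG32091, CG4382 and CG11034. CG6287 (2L, 11151506 to 11155721, minus strand) had 179, 168 and 192 CPM in WT, 95.8, 64.4 and 92.6 in N, 31.9, 36.9 and 30.5 in S, and 61.0, 60.5 and 65.6 in NS. NS lay above S by 0.97 ± 0.165 (log2, edgeR adjusted p = 0.0086), and S lay below N by −1.22 ± 0.166 (edgeR adjusted p = 0.000725). The NS mean was below that of N, but the libraries overlapped and the difference did not pass the threshold (log2 −0.25 ± 0.163, edgeR adjusted p = 0.308). The call of NS against S was lost with the 2 groups alone (adjusted p = 0.0993, range 1.75e-06 to 0.0993). CG32091 had 33.8 to 49.1 CPM in WT, 18.6 to 25.2 in N, 5.14 to 6.79 in S and 9.30 to 16.1 in NS, above S by 1.10 ± 0.214 (log2, edgeR adjusted p = 0.0166). It lost the call without NS replicate 1 (0.0629), S replicate 1 (0.0649) or S replicate 2 (0.0617), over a range of 0.000235 to 0.217. CG4382 had 113, 105 and 116 CPM in WT, 28.1, 32.1 and 21.7 in N, 0.456, 2.07 and 0.130 in S, and 13.8, 12.9 and 2.59 in NS. NS was above S by 3.48 ± 0.764 (log2, edgeR adjusted p = 0.0319), and leaving out any of N replicates 1, 2 and 3 (0.0601, 0.0553, 0.0566), NS replicate 1 or 2 (0.0928, 0.0786), S replicate 1 (0.115) or WT replicates 1, 2 and 3 (0.051, 0.0565, 0.0522) lost the call, over a range of 0.000124 to 0.331. CG11034 had 6.97 to 15.3 CPM in WT, 3.85 to 5.96 in N, 0.405 to 1.51 in S and 2.72 to 5.12 in NS, above S by 2.16 ± 0.498 (log2, edgeR adjusted p = 0.0381). The replicate block gave 0.0798, and the call was lost without N replicates 1, 2 and 3 (0.0671, 0.0585, 0.068), NS replicates 1 and 2 (0.114, 0.0744), S replicates 1 and 2 (0.107, 0.133) or WT replicates 1 and 2 (0.0547, 0.0691), each left out alone, over a range of 0.000539 to 0.307.

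At the edge of the rule, the members just inside had a largest ratio to WT of 0.5997 (CG14961), 0.5987 (CG17760), 0.5981 (CG3814), 0.5924 (CG43366) and 0.5877 (CG30438). The genes just outside were CG3625 at 0.6004, CG16786 at 0.6032, CG9812 at 0.6033, CG11686 at 0.6035 and CG12071 at 0.6058, so the limit falls in no gap in the values.

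The same rule was applied to 10 lists of named genes for the pathways and cell types of the disc, to see which stand beside the CG members. Over all symbols that are not CG numbers at 3 CPM the share was 5.06%, and 3.88% without WT replicate 1. The rule was met by 4 of 15 ecdysone response and eversion genes at 3 CPM, ImpE2, ImpE1, Hr4 and Eip78C. ImpE2, which ecdysone induces during disc eversion, had 2879, 2995 and 3016 CPM in WT, 345, 96.2 and 339 in N, 0.861 to 1.69 in S and 0.605 to 0.955 in NS. Hr4, a nuclear receptor of the ecdysone cascade, had 87.8 to 106 CPM in WT, 0.332 to 4.34 in N, 0.0899 to 0.234 in S and 0.196 to 0.473 in NS. Others of the list went the other way: ftz-f1, a nuclear receptor, had means 2.63, 2.33 and 2.41 times WT in N, S and NS, and ImpL2, a secreted insulin antagonist, 1.11, 5.23 and 2.75 times. The rule was also met by 4 of 11 tracheal genes (trh, btl, vvl and dy) and 2 of 17 genes of adult muscle precursors (sns and Act57B). It was met by 2 of 12 notum and hinge genes (pnr and ush) and 2 of 7 sensory organ genes (sens and Poxn). In 4 lists 1 gene met it: 1 of 19 in wing disc epithelium (pnr), 1 of 9 in fat body (Fbp1), 1 of 6 in neuron and glia (Gs2) and 1 of 13 in cuticle (dy). No haemocyte gene met it, of 11 at 3 CPM. Every gene named here as meeting the rule also met it without WT replicate 1. The tracheal, fat body, wing and neuron lists also held genes that went the other way. Gasp of the tracheal list had means 1.16, 2.06 and 1.33 times WT in N, S and NS. FASN1 of the fat body list had 2.11, 7.28 and 5.11 times. Apart from Fbp1, every fat body gene at 3 CPM had means above WT in all 3 groups. Fbp1 itself had 47.9 CPM in NS replicate 1, against 35.1 to 43.4 in WT. wg of the wing list had 4.04, 0.781 and 2.79 times, and moody of the neuron and glia list 1.18, 4.78 and 4.23 times. The muscle precursor genes summed to 1397 to 1560 CPM in WT, 1497 to 1761 in N, 934 to 1076 in S and 654 to 1282 in NS. The N sum includes vg and ct, which are also expressed in the epithelium and had N means 2.59 and 2.62 times WT, whereas twi, Him, zfh1, htl and stumps were at 0.428, 0.413, 0.41, 0.576 and 0.619 of WT in N. In S these 5 genes were at 0.708, 0.646, 0.939, 1.44 and 1.14 of WT, and in NS at 0.414, 0.479, 0.364, 0.417 and 0.517. The notum and hinge genes summed to 1918 to 2355 CPM in WT, 1652 to 1848 in N, 831 to 1558 in S and 390 to 1305 in NS. The part of such cell types in the levels of the CG members was not tested.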

How the data were processed

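Libraries were made from mRNA with a kit that keeps strand, per the labels. The authors deposited unnormalized read counts for each symbol in the 12 libraries. The submitters' processing notes name TopHat2 2.0.9, Bowtie2 2.1.0, HTSeq, edgeR, DESeq and dm6. Which annotation was counted, and whether strand was used, is not given in the sources, so reads of overlapping genes may be mixed. Exons of 28 of the 112 members overlap another gene, on the opposite strand in 25, and by over 25% of their length in 3. Names and positions are from the Ensembl BDGP6 annotation and RefSeq. The table holds 17716 symbols and 2 blank lines, which were left out.

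CPM values are counts over the column total. Differences between mutant groups were fitted with edgeR 4.0.16 in R 4.3.3 (filterByExpr, TMM, quasi-likelihood over all 12 libraries, 1 coefficient per group). The fit had 8 residual degrees of freedom, with Benjamini-Hochberg adjustment over the 9444 genes tested. It was run on simulated counts with 1 spread for all genes and no library set apart as WT replicate 1, NS replicate 3 and S replicate 3 were. That run thus does not measure error rates in these libraries. DESeq2 1.42.0 was an alternative. Tables and plots used Python 3.11.15. No pair of replicates was identical, and p-values measure the spread between pools. The members, the lists and the rule for named genes were chosen with earlier results of these data known. The rule named the 10 members of highest WT mean, the 10 of lowest largest ratio, up to 6 called members of smallest adjusted p per direction and comparison, and 5 genes on each side of the limit. Members with a current name or a RefSeq synonym, Culd, CG13992, the gut enzyme families and the WT library splits were chosen after values were seen. Alternatives were other scalings, no filter, the compared groups alone, a replicate block, an exon length correction, and libraries left out. Deviations from the group means correlated across genes between NS and S of the same replicate number (r = 0.457, 0.493 and 0.327). No other groups did so in every replicate, and N and NS had r = −0.246, −0.495 and −0.108. In both NS and S, replicate 1 had most fat body RNA and replicate 3 was low in long genes. Whether the correlation reflects paired samples was not tested. The replicate block still set 1 replicate effect for all groups, N and WT included.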

Additional observations from a re-analysis of the deposited data

How the results depend on the processing

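The number of members was 306 with a WT minimum of 1 CPM, 99 with 10 CPM, 295 with WT replicate 1 alone as WT and 101 with WT replicate 3 alone (the last added after seeing the data), and 115 to 232 with each library left out, the 115 without WT replicate 1 and the 232 without WT replicate 3. Members whose libraries do not overlap with WT were 105 to 147 for N, 109 to 136 for S and 110 to 143 for NS with each library left out. Calls lower in NS against N were 30 to 48 with each library left out and 30 to 59 over all alternatives, and calls higher were 0 except for 1 with the compared groups alone. Calls higher in NS against S were 1 to 17 with each library left out (17 without S replicate 3), 0 with the compared groups alone, 18 without NS replicate 3 and S replicate 3, the libraries low in long genes, and 0 without the 3 libraries of most fat body RNA. Calls lower in NS against S were 7 to 18 with each library left out (7 without NS replicate 1 or WT replicate 2), and 0, 24 and 1 in the same 3 alternatives, 22 with the exon length correction and 20 with DESeq2. Calls higher in S against N were 3 to 6 with each library left out (6 without NS replicate 3), 7 with the exon length correction and 5 without NS replicate 3 and S replicate 3. Calls lower there were 29 to 48 with each library left out and 61 without these 2 libraries. The causes were not tested. With the replicate block, calls in NS against S were 4 higher and 9 lower, and CG11034 and CG15661 lost theirs. That block set 1 replicate effect for all groups, though N and NS of the same replicate number did not vary together. Of 45 calls of named members, 24 held under every alternative, and no log2 difference among the named members reversed with a call. Depth limits members at levels where a library holds few counts, and 3 counts are 0.0707 to 0.143 CPM depending on the library.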
